A study of Mus musculus with 6 samples.

Results

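The subunits of the transcription factor NF-kappaB and the proteins that hold it in check were examined in regulatory T cells (Treg) without the histone deacetylase HDAC9. The genes were taken by name as Nfkb1, Nfkb2, Rel, Rela, Relb, Nfkbia, Nfkbib, Nfkbie, Tnfaip3 and Bcl3. Every probe set that the platform annotation pairs with one of these symbols and no other was used, each on its own. Probe sets annotated with several symbols were not used. Such a probe set was found for 9 of the 10 genes, which gave 13 of the 22626 probe sets tested and 9 of the 12393 genes named. Nfkb1 was not analysed here. The 3 HDAC9-/- samples came from mice that carry this genotype on the C57BL/6 strain, and the 3 wild type samples came from C57BL/6 mice. In both groups the cells were the CD4+CD25+ fraction obtained with magnetic beads, and 1 array was hybridised per sample. The labels call the samples independent, but do not say whether each came from its own animal, so every p-value rests on how these samples vary, which may be technical. The age of the mice, the deleted exons and any agent given are not stated in the labels.

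NF-kappaB is a family of dimers built from 5 related proteins, all of which share the Rel homology domain that binds DNA. In resting cells most dimers are held in the cytoplasm by inhibitor (IkB) proteins. When a receptor for antigen, tumour necrosis factor or a microbial product is engaged, the IkB kinase complex phosphorylates the inhibitor, which is then degraded, and the dimer enters the nucleus. Among its targets are its own inhibitors, which end the response. In Treg, c-Rel (the product of Rel) acts at the Foxp3 gene during their development in the thymus, and c-Rel and RelA are needed by mature and activated Treg.

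The promoters shown first are those of the 5 member genes with a window that matched the motif given below, a window each. They were picked by that match, and they illustrate the kind of site through which the family feeds back on itself. They are RefSeq sequences of assembly GRCm38.p6, each covering the 250 bases before a transcription start, read 5' to 3' on the strand of the gene. The array data carry no coordinates, so these windows were not matched to probe positions. Capitals mark matches to the 9-letter motif GGNNTTTCC on the gene's strand or GGAAANNCC, the same motif on the other strand. This is a form of the kappaB site, and the 2 spellings cannot match at the same position.
Nfkbia, chr12:55492648-55492897 (minus strand): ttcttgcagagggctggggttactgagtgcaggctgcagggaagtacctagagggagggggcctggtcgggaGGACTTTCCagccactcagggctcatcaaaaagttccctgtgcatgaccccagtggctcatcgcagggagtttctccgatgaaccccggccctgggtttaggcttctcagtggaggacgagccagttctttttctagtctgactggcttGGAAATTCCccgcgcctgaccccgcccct
Tnfaip3, chr10:19015411-19015660 (minus strand): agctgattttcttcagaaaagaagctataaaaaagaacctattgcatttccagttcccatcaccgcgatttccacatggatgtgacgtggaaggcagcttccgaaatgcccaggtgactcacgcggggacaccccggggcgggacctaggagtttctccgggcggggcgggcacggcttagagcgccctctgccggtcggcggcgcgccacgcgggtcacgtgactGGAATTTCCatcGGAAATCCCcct
Rel, chr11:23770970-23771219 (minus strand): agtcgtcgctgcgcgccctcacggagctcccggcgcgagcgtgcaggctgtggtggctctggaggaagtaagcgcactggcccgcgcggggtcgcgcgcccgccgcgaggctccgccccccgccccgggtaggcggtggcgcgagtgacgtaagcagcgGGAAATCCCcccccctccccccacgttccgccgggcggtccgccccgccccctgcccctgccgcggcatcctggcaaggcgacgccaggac
Nfkb2, chr19:46304487-46304736 (plus strand): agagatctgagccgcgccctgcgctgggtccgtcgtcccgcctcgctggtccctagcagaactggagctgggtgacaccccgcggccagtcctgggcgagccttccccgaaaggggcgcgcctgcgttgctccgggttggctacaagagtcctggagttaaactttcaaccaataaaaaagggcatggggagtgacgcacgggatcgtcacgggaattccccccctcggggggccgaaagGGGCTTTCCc
Bcl3, chr7:19822756-19823005 (minus strand): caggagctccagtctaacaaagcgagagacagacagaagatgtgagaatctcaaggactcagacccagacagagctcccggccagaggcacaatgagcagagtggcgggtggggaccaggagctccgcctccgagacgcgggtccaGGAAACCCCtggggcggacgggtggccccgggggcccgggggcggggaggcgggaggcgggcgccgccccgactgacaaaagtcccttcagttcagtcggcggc

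The Nfkbia window holds GGACTTTCC starting 178 bases before the start and GGAAATTCC starting 29 bases before it. The Tnfaip3 window holds a close pair, GGAATTTCC and GGAAATCCC, starting 24 and 12 bases before the start. Single matches lie 91 bases before the start in Rel (GGAAATCCC), 10 bases before it in Nfkb2 (GGGCTTTCC) and 104 bases before it in Bcl3 (GGAAACCCC). A further Nfkb2 start has GGACTTTCC 224 bases upstream of it. In all, 8 of the 10 genes had a window in the table, with 11 windows, and 6 of these windows (5 genes) held a match, against 4.93% of the 32817 mouse promoter windows of the same length. The windows of Rela, Nfkbib and Nfkbie held no match, and Relb and Nfkb1 are named only. A match is a description of the letters, and binding was not measured.

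Hdac9 itself has 1 probe set, which read 3.74, 3.62 and 3.66 in HDAC9-/- samples, against 3.50, 3.74 and 4.10 in wild type samples, below the median of all probe sets (5.76). The groups overlapped near the bottom of the range, and where its probes lie relative to the deleted part is not given, so it does not check the labels. Foxp3, the defining factor of Treg, read 10.37 in HDAC9-/- and 10.34 in wild type samples (mean log2), but 6 of the 9 probe sets of the Treg marker list had negative differences, with a median of -0.085. The groups did not overlap for 2 of these 9, both of the gene Il2ra and both lower in HDAC9-/- samples. Over all probe sets the groups did not overlap for 17.0%, in either direction. The mean score of the Treg list overlapped between genotypes. The T cell genes Cd3e and Cd4 read 11.79 and 9.83 in HDAC9-/- against 11.83 and 9.90 in wild type samples. All 6 probe sets of the T cell marker list had negative differences, with a median of -0.047 and a lowest value of -0.38. The groups did not overlap for 1 of these 6, lower in HDAC9-/- samples, which is near the 17.0% of all probe sets. Markers of other cells were present too. All 17 probe sets of the 15 myeloid marker genes had positive differences with a median of 0.36, and the log2 values summed over the 15 genes ran from 123.4 to 128.8 in HDAC9-/- samples, against 113.4 to 121.2 in wild type samples. Lyz2 and S100a8, which define myeloid cells and neutrophils, read 10.19 and 11.96 in HDAC9-/- against 9.82 and 10.99 in wild type samples, while Cd14 and Itgam were dimmer than the typical probe set, at 4.45 and 4.31 in HDAC9-/- and 4.17 and 4.14 in wild type samples. The excess of the 3-prime Gapdh control over its 5-prime counterpart, a measure of RNA integrity and labelling, also did not overlap, at 0.155 to 0.276 in HDAC9-/- and 0.026 to 0.113 in wild type samples. The same measure for actin did overlap, at 0.423 to 0.599 in HDAC9-/- and 0.334 to 0.460 in wild type samples. Plasma cell markers had negative differences in 7 of 10 probe sets, and the log2 values summed over their 4 genes ran from 34.4 to 35.2 in HDAC9-/- samples, against 35.5 to 35.7 in wild type samples. Wild type replicate 3 stood apart from the other arrays, with the lowest mean correlation to them (0.991, against 0.994 to 0.996 for the rest) and the lowest array median (5.69 against 5.77 to 5.81). Without it 0 member probe sets passed, as with it.

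No NF-kappaB subunit or inhibitor that was measured passed the test of a difference between HDAC9-/- and wild type Treg. None of the 13 probe sets passed an adjusted p of 0.05 in limma's test across all probe sets (Benjamini-Hochberg adjustment), where 0.0133% of all probe sets (3 of 22626) passed. None had an unadjusted p below 0.05 either, against 8.78% of all probe sets. The smallest unadjusted p among the members was 0.125 and the smallest adjusted p 0.635, both for Nfkbia. Differences, given throughout in log2 units with the wild type mean subtracted, ran from -0.085 in Tnfaip3 to 0.15 in Nfkb2 and Rel. The 95% confidence intervals of all 13 lay within 0.771-fold and 1.32-fold, so that changes beyond those bounds were outside every interval, each taken alone.

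**Figure D1:**
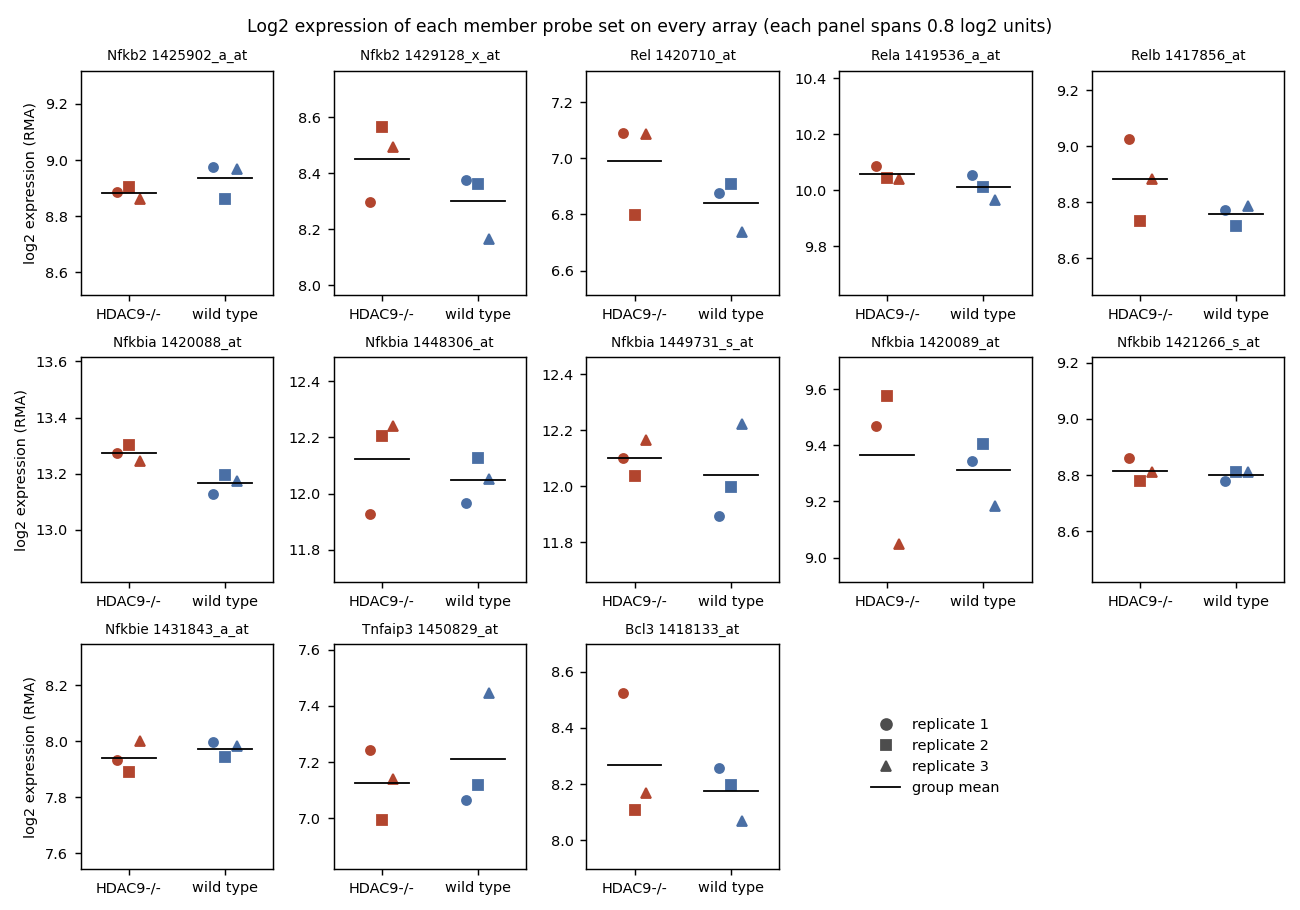
Log2 expression of the 13 member probe sets (y axis, deposited RMA values) in the 3 HDAC9-/- samples on the left and the 3 wild type samples on the right of each panel, with 1 symbol shape per replicate number and a line at the group mean. Each panel spans the same number of log2 units, and the genotypes fail to overlap in 1 panel, that of Nfkbia probe set 1420088_at.

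Among the subunits, Rela encodes p65, the main activating partner of most inducible dimers. Its probe set 1419536_a_at read 10.09, 10.05 and 10.04 in HDAC9-/- replicates 1 to 3, against 10.05, 10.01 and 9.97 in wild type replicates 1 to 3 (log2). The groups overlapped, and all 6 arrays lay within 0.122 log2 units of each other. The difference was 0.047 ± 0.063 (SE, limma, adjusted p = 0.826), and its interval ran from 0.931-fold to 1.15-fold. Without wild type replicate 3 the difference was 0.025.

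Rel encodes c-Rel, the subunit most closely tied to Treg development. Probe set 1420710_at read 7.09, 6.80 and 7.09 in HDAC9-/- samples, against 6.88, 6.91 and 6.74 in wild type samples. HDAC9-/- replicates 1 and 3 were above every wild type array, while replicate 2 lay below wild type replicates 1 and 2. The difference of 0.15 ± 0.10 (SE) gave no call (limma, adjusted p = 0.676). Without HDAC9-/- replicate 2 it was 0.25 (adjusted p = 0.785), and without wild type replicate 3 it was 0.098.

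Relb encodes RelB, the partner of p52 in the slower, non-canonical branch that runs downstream of receptors such as CD40 and the lymphotoxin beta receptor. Probe set 1417856_at read 9.02, 8.73 and 8.88 in HDAC9-/- samples, against 8.77, 8.71 and 8.79 in wild type samples. HDAC9-/- replicates 1 and 3 were again the highest arrays, and replicate 2 fell among the wild type arrays. The mean was 8.88 ± 0.14 in HDAC9-/- and 8.76 ± 0.04 in wild type Treg (SD, n = 3), which differ by 0.12 ± 0.089 (SE, limma, adjusted p = 0.685). Without HDAC9-/- replicate 1 the difference was 0.053, and without replicate 2 it was 0.20.

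Nfkb2 encodes p100, which serves as an inhibitor until it is processed to the subunit p52. Its brighter probe set 1425902_a_at read 8.89, 8.90 and 8.86 in HDAC9-/- samples, against 8.98, 8.86 and 8.97 in wild type samples, a difference of -0.051 ± 0.066 (SE, limma, adjusted p = 0.821). Probe set 1429128_x_at, of a type whose probes may also bind other transcripts, read 8.30, 8.57 and 8.49 in HDAC9-/- samples, against 8.38, 8.36 and 8.17 in wild type samples. Its difference of 0.15 (standard error 0.10, adjusted p = 0.669) had the opposite sign. Without HDAC9-/- replicate 1 the difference of 1429128_x_at was 0.23, and it was 0.083 without wild type replicate 3. That of 1425902_a_at ran from -0.0875 without wild type replicate 2 to -0.031 without wild type replicate 1. The genotypes overlapped in both probe sets, and the 2 probe sets therefore gave no common direction for Nfkb2.

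Nfkbia encodes IkB-alpha, the inhibitor that is lost and resynthesised fastest after stimulation and one of the most direct transcriptional readouts of NF-kappaB activity. It has 4 probe sets. The brightest, 1420088_at, read 13.27, 13.30 and 13.25 in HDAC9-/- samples, against 13.13, 13.20 and 13.17 in wild type samples. Every HDAC9-/- array lay above every wild type array, and the whole range of the 6 arrays was 0.177. The mean was 13.27 ± 0.03 in HDAC9-/- and 13.16 ± 0.04 in wild type Treg (SD, n = 3), a difference of 0.11 ± 0.0625, or 1.08-fold (SE, limma, adjusted p = 0.635). The interval ran from 0.973-fold to 1.20-fold.

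This was the 1 member probe set of 13 whose groups did not overlap. Over all probe sets the groups did not overlap for 17.0%, and for 11.0% with HDAC9-/- higher, so 1 of 13 is not above the share over the whole array. When the medians of the arrays were aligned, wild type replicate 3 read 13.26 and fell between the HDAC9-/- values of 13.23 and 13.27, so the groups overlapped. Without that array the difference was 0.11 (adjusted p = 0.606). With limma's trended and robust options in place of the constant prior, the unadjusted p was 0.00396 and the adjusted p 0.252. The summed myeloid markers and the Gapdh 3-prime excess, but not the actin one, separate the genotypes in the same direction as this probe set, and the plasma cell and immediate early scores separate them in the opposite one. Myeloid cells express Nfkbia as well, and the part of any of these in its value was not tested. In bulk samples, fewer cells of a type and less RNA per cell cannot be told apart.

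The other 3 Nfkbia probe sets had smaller positive differences, and their genotypes overlapped. Probe set 1448306_at differed by 0.076 (standard error 0.10), 1449731_s_at by 0.063 (0.099) and 1420089_at by 0.055 (0.15). They did not order the arrays alike. HDAC9-/- replicate 3 was the highest array in 1448306_at at 12.24 and the lowest in 1420089_at at 9.05, and wild type replicate 3 was the highest in 1449731_s_at at 12.22. Each rested on single arrays. The difference of 1448306_at was 0.018 without HDAC9-/- replicate 3 and 0.17 without HDAC9-/- replicate 1. The difference of 1449731_s_at was -0.0085 without wild type replicate 1, and leaving out wild type replicate 3 gave 0.16. That of 1420089_at was -0.051 without HDAC9-/- replicate 2 and ran up to 0.21 without HDAC9-/- replicate 3, and none of the 3 passed (limma, adjusted p = 0.827, 0.853 and 0.912).

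Nfkbib encodes IkB-beta and Nfkbie IkB-epsilon, which act on longer time scales than IkB-alpha. Nfkbib probe set 1421266_s_at read 8.86, 8.78 and 8.81 in HDAC9-/- samples, against 8.78, 8.81 and 8.81 in wild type samples. Nfkbie probe set 1431843_a_at read 7.93, 7.89 and 7.999 in HDAC9-/- samples, against 7.996, 7.94 and 7.98 in wild type samples. The groups overlapped in both, and the arrays were close together, with whole ranges of 0.083 and 0.108. The differences were 0.015 for Nfkbib (limma, adjusted p = 0.945) and -0.033 for Nfkbie (adjusted p = 0.880). That of Nfkbib was -0.0069 without HDAC9-/- replicate 1 and 0.035 without HDAC9-/- replicate 2, and that of Nfkbie was -0.0082 without HDAC9-/- replicate 2 and -0.062 without HDAC9-/- replicate 3. Their intervals ran from 0.912-fold to 1.12-fold and from 0.878-fold to 1.09-fold, which makes them, with Rela, Nfkbia 1420088_at and Nfkb2 1425902_a_at, the members measured with the narrowest intervals.

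Tnfaip3 encodes A20, an enzyme that edits ubiquitin chains and shuts off signalling upstream of the IkB kinase complex. Probe set 1450829_at read 7.24, 6.99 and 7.14 in HDAC9-/- samples, against 7.06, 7.12 and 7.45 in wild type samples. Wild type replicate 3 was the highest array, and the other arrays were intermixed. The difference was -0.085 ± 0.12 (SE, limma, adjusted p = 0.840), and it was 0.033 without wild type replicate 3. Leaving out wild type replicate 1 gave -0.16.

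Bcl3 encodes a nuclear IkB protein that binds p50 and p52 homodimers and can turn them into activators. Probe set 1418133_at read 8.53, 8.11 and 8.17 in HDAC9-/- samples, against 8.26, 8.20 and 8.07 in wild type samples. HDAC9-/- replicate 1 alone stood above the wild type arrays. The mean was 8.27 ± 0.23 in HDAC9-/- and 8.17 ± 0.10 in wild type Treg (SD, n = 3), and the difference of 0.093 (standard error 0.12, limma, adjusted p = 0.826) was -0.037 without HDAC9-/- replicate 1 and 0.17 without HDAC9-/- replicate 2.

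**Figure D2:**
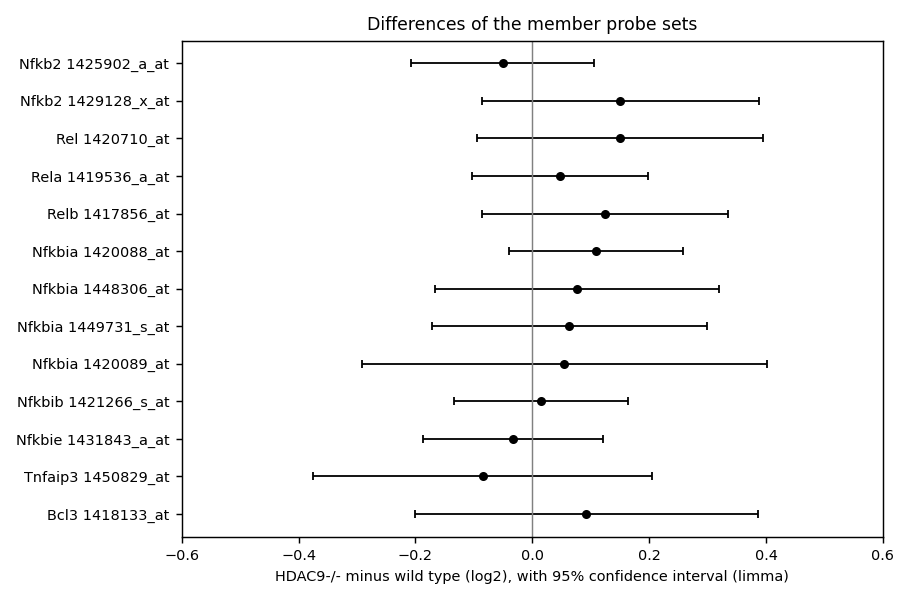
Difference of each member probe set, HDAC9-/- minus wild type (x axis, log2), with the 95% confidence interval from limma (bars). All 13 intervals include 0, and the widest is that of Nfkbia probe set 1420089_at.

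As a list, 10 of the 13 probe sets had a positive difference, 9 of 13 when array medians were aligned, against 52.2% of all probe sets. The median difference was 0.063 over the members and 0.0078 over all probe sets. It was 0.027 over the 11313 probe sets left without the dim ones, which include all 13 members. The member median was 0.033 without HDAC9-/- replicate 1, 0.10 without wild type replicate 2, 0.040 without wild type replicate 3 and 0.037 with array medians aligned. The median size of a difference was 0.076 for members and 0.092 for all. These are descriptions, and the 4 Nfkbia probe sets are not independent of each other. The spread between replicates differed widely among the members. The residual SD was 0.032 for Nfkbia 1420088_at, 0.033 for Nfkbib and 0.036 for Rela. It was 0.17 for Tnfaip3 and for Bcl3 and 0.21 for Nfkbia 1420089_at, against a median of 0.12 over all probe sets. The genes whose promoter window held the motif, with 9 probe sets, differed by -0.085 to 0.15, and the 3 genes whose window held none by -0.033 to 0.047. A range widens with the number of probe sets, and 4 of the 9 are of Nfkbia, so these ranges do not compare the 2 groups of genes.

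The mean profile of the 9 genes over the arrays, taken from the brightest probe set of each after centring, was 0.097, -0.055 and 0.020 in HDAC9-/- replicates 1 to 3, against -0.017, -0.032 and -0.013 in wild type replicates 1 to 3. The HDAC9-/- samples thus spanned the wild type samples, with replicate 1 highest and replicate 2 lowest. Of 12384 other genes, the most similar profiles over the 6 arrays were those of Insm1 (Pearson r = 0.991, Spearman rho = 1.0), Phf20 (r = 0.980, rho = 1.0), Ndfip2 (r = 0.978, rho = 0.771), Ndufb1 (r = 0.974, rho = 0.943) and Pdhb (r = 0.971, rho = 0.943). Without HDAC9-/- replicates 1 and 2, the arrays farthest from the median, r was 0.966, 0.930, 0.828, 0.819 and 0.886 for these genes in the same order. They were picked as the highest of so many, 67 genes had r over 0.9, and the arrays share their labelling and processing, so these values describe the arrays only.

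Markers of B cells were highest on HDAC9-/- replicate 1, as were Rel, Rela, Relb, Nfkbib, Bcl3 and the mean member profile. The brightest probe sets of Nfkb2, Nfkbia, Nfkbie and Tnfaip3 were highest on other arrays. The B cell score of HDAC9-/- replicate 1 was 0.32. It was 0.11 and -0.29 in HDAC9-/- replicates 2 and 3 and -0.14 to 0.073 in wild type samples. A score is the mean centred log2 value over a list, here 7 B cell genes, whose summed log2 values ran from 45.5 to 49.8 in HDAC9-/- and 46.6 to 48.1 in wild type samples. Of the 11 B cell probe sets, 8 had positive differences, with a median of 0.11. Cd79b read 8.29 in HDAC9-/- and 8.05 in wild type samples and Ms4a1 7.94 in HDAC9-/- and 7.88 in wild type samples, while Pax5 was dim at 3.91 in HDAC9-/- and 4.14 in wild type samples. HDAC9-/- replicate 1 was also the highest array for the CD8 T and natural killer cell score (0.23), the Gapdh excess (0.276) and the actin excess (0.599). B cells and myeloid cells express Relb and Bcl3, and the part of these cells or of RNA quality in the values was not tested. HDAC9-/- replicate 2, the lowest array of the member profile, had a myeloid score of 0.41, next to 0.39 in replicate 1.

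**Figure D3:**
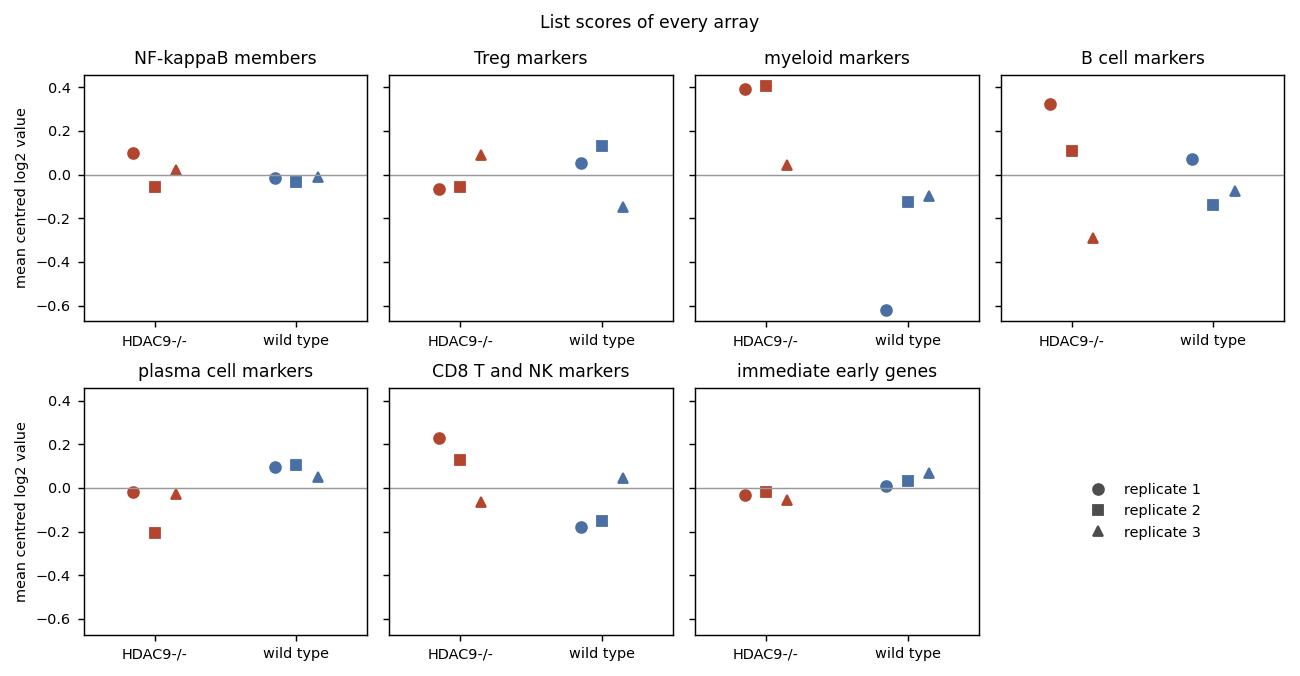
Mean centred log2 value of 7 gene lists on every array (y axis), with HDAC9-/- samples on the left and wild type samples on the right of each panel and 1 symbol per replicate number. The myeloid scores (higher in HDAC9-/-) and the plasma cell and immediate early scores (lower in HDAC9-/-) do not overlap between genotypes, while the member, Treg, B cell and CD8 T and natural killer cell scores do.

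The genes around these members in the pathway did not pass either. Of 74 further genes listed, 61 had a probe set, and 0 of their 98 probe sets passed an adjusted p of 0.05 in limma's test. At an unadjusted p below 0.05 (limma) there were 10, a share close to the 8.78% of all probe sets. These were 4 with a positive and 6 with a negative difference, against 1256 positive and 731 negative over all probe sets. The groups did not overlap for 16 of the 98, close to the 17.0% of all probe sets. Of these, 6 were higher and 10 lower in HDAC9-/- samples, against 2489 higher and 1367 lower over all probe sets.

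In the IkB kinase complex and its upstream kinases, 0 of 25 probe sets passed, and 12 were positive and 13 negative with a median of -0.012. Ikbke, the inducible kinase IKK-epsilon that also acts on interferon regulatory factors, had the smallest p of this list. Its probe set 1417813_at read 10.12, 10.06 and 10.11 in HDAC9-/- samples, against 10.37, 10.38 and 10.34 in wild type samples. The groups were far apart relative to their spread, with SDs of 0.031 in HDAC9-/- and 0.022 in wild type samples, and the difference of -0.27 ± 0.062 (SE) gave no call (limma, unadjusted p = 0.00364, adjusted p = 0.422). The adjusted p was 0.0941 under the trended and robust options and ran up to 0.795 over the other settings. Ikbkg, the regulatory subunit NEMO, differed by 0.16 in its brightest probe set (adjusted p = 0.557) and by -0.082 to -0.012 in the other 3. Tab2, an adaptor of the kinase TAK1, differed by -0.13 and -0.31 in its 2 probe sets (adjusted p = 0.614 and 0.617), and the larger one was -0.12 without wild type replicate 2.

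Of the complex that links the antigen receptor to NF-kappaB, 2 of 4 listed genes had probe sets. The adaptor Bcl10 differed by 0.11, 0.081 and -0.026 in its 3 probe sets, and Prkcq, the kinase PKC-theta of the T cell synapse, by -0.019 (limma, adjusted p = 0.934 for Prkcq). The genotypes overlapped in all 4 probe sets, of which 0 passed.

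Among the TRAF, cIAP and RIP adaptors, 0 of 12 probe sets passed and the median was 0.038. Traf6, the ubiquitin ligase of the interleukin-1 and Toll-like receptor branch, had positive differences in all 3 probe sets, of 0.30, 0.18 and 0.099. Probe set 1421376_at read 6.82, 6.72 and 6.92 in HDAC9-/- samples, against 6.49, 6.68 and 6.37 in wild type samples, without overlap (limma, adjusted p = 0.520). The groups overlapped in the other Traf6 probe sets, of which that with a difference of 0.18 is the brightest. Traf1, an NF-kappaB target and adaptor of tumour necrosis factor receptors, differed by -0.21 (adjusted p = 0.580), and Traf2 by -0.11 (adjusted p = 0.702). Without wild type replicate 1 these differences were -0.14 for Traf1 and -0.049 for Traf2.

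Of the partners of A20 and other deubiquitinases, 0 of 12 probe sets passed and the median was 0.020. Usp18, which removes the ubiquitin-like protein ISG15 and is itself induced by interferon, had the smallest unadjusted p of all pathway genes. It read 8.41, 8.34 and 8.42 in HDAC9-/- samples, against 8.80, 8.64 and 8.70 in wild type samples. Every HDAC9-/- array was below every wild type array, and the difference of -0.32 ± 0.071 (SE) gave no call (limma, unadjusted p = 0.00267, adjusted p = 0.398). Tax1bp1, an adaptor that brings A20 to its substrates, differed by -0.21 in its brightest probe set (adjusted p = 0.601), or by -0.11 there without wild type replicate 3. Its other probe sets differed by 0.15 and -0.020, both with overlapping groups. Otud7b, a deubiquitinase of the non-canonical branch, differed by 0.35 (adjusted p = 0.601), with overlapping groups, and by 0.19 without wild type replicate 3. In a list of atypical IkB proteins and other genes grouped with them, 0 of 5 probe sets for 3 genes passed. The list's median of 0.13 is the value of an Nkap probe set and does not describe the IkB proteins. Nfkbil1 differed by 0.17 (limma, adjusted p = 0.598). Nfkbiz differed by 0.0010 in its brighter probe set (adjusted p = 0.998) and by -0.032 in the other. Nkap, a nuclear protein needed for T cell maturation, differed by 0.19 and 0.13 in 2 probe sets that both read below 3.64 on every array, near the bottom of the range.

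Known target genes of NF-kappaB gave no common direction. Of 45 probe sets for 31 genes, 0 passed, 20 were positive and 25 negative, and the median was -0.024. Gadd45b, a stress-induced regulator of cell survival, had the smallest p. Its probe set 1449773_s_at read 9.71, 9.62 and 9.70 in HDAC9-/- samples, against 9.32, 9.18 and 9.51 in wild type samples, without overlap, and the difference was 0.34 ± 0.096 (SE, limma, adjusted p = 0.454). Its other probe sets differed by 0.20 and 0.053, both with overlapping groups. Bcl2l1, which encodes the survival factor Bcl-xL, differed by -0.39 in probe set 1426191_a_at, which is dimmer than the typical probe set (adjusted p = 0.549), by -0.24 there without wild type replicate 3, and by -0.051 in its brightest one. Irf4, the transcription factor of effector Treg, differed by -0.30 in its dimmer probe set (adjusted p = 0.541) and by -0.092 in the brighter one. The groups overlapped in both, and the dimmer one read below the median of all probe sets. Plasma cells also express Irf4, and their markers differed in the same direction, with scores of -0.21 to -0.017 in HDAC9-/- and 0.050 to 0.11 in wild type samples. Jchain read 11.52 in HDAC9-/- and 11.99 in wild type samples, and Sdc1 was dim at 5.29 in HDAC9-/- and 5.33 in wild type samples. Their part in Irf4 was not tested.

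The remaining targets at an unadjusted p below 0.05 were Ccl5, Il2ra and Lta. The chemokine Ccl5 had a difference of 0.30 (limma, adjusted p = 0.553). It is also a marker of CD8 T and natural killer cells, of whose 13 listed probe sets, that of Ccl5 included, 10 had positive differences. The log2 values summed over the other 9 genes ran from 69.5 to 72.4 in HDAC9-/- and 68.7 to 70.6 in wild type samples, which overlapped, and the part of these cells in Ccl5 was not tested. Il2ra encodes CD25, by which the cells were isolated, and differed by -0.19 and -0.085 in its 2 probe sets (adjusted p = 0.557 for the first), without overlap in either. Lta, which encodes lymphotoxin alpha, differed by -0.17 (adjusted p = 0.560). Immediate early genes, which respond to stimulation and to handling of the cells, had negative differences in 10 of 14 probe sets with a median of -0.077. Their summed log2 values over 11 genes ran from 111.8 to 112.2 in HDAC9-/- samples, against 112.4 to 113.1 in wild type samples, and their part in the target genes was not tested.

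**Figure D4:**
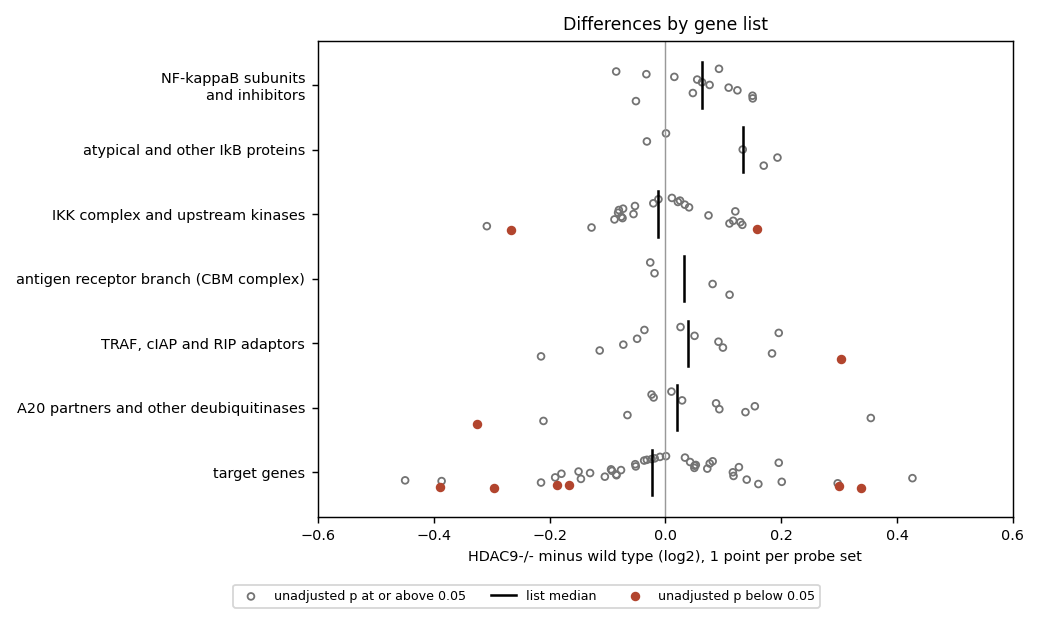
Difference of every probe set, HDAC9-/- minus wild type (x axis, log2), by gene list, with filled points for an unadjusted p below 0.05 and a bar at each list's median. No filled point lies in the row of NF-kappaB subunits and inhibitors, and the rows of the other lists fall on both sides of 0.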

How the data were processed

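Expression was measured in 6 samples, 3 HDAC9-/- and 3 wild type, on 1 biotin-labelled oligonucleotide array each. The authors deposited log2 expression values, for which the submitters' processing notes name RMA; the RMA version and settings were not given in the sources used here. RMA pulls dim probe sets toward background, which understates their differences, and precision is limited by the small number of arrays. Of 22690 probe sets, 64 controls were left out and 22626 tested with no filter. Genes were named where the platform annotation gives 1 symbol (20380 probe sets, against 691 with several and 1555 with none), updated through Entrez identifiers to GRCm38.p6 names for 20351.

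HDAC9-/- was compared with wild type by limma 3.58.1 in R 4.3.3 (lmFit, eBayes, genotype alone) across all probe sets, with Benjamini-Hochberg adjustment over all of them, and the procedure was tested on simulated data. An exact permutation test of 3 against 3 arrays cannot go below p = 0.10. The members and lists were chosen with earlier results of these data known. All member probe sets were described; pathway genes were named at an unadjusted p below 0.05, plus up to 3 per list by smallest p, and the 5 genes most like the mean member profile. The replicate number was not taken as a pairing, because same-numbered samples did not deviate together across groups. With 3 arrays per group this cannot settle whether samples were paired. Alternatives were another variance prior, array weights, quantile normalization, aligned medians, a filter on dim probe sets, the replicate block, 1 probe set per gene, an adjusted p of 0.10 and leaving out each array. Promoter windows were searched and figures drawn in Python 3.11.15 with matplotlib 3.10.9.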

Additional observations from a re-analysis of the deposited data

How the results depend on the processing

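The count of member probe sets past an adjusted p of 0.05 was 0, and that of the pathway lists was 0, under all the alternatives run, including an adjusted p of 0.10, and 0 with the replicate number as a replicate block. The count of members at an unadjusted p below 0.05 was 1 (Nfkbia 1420088_at) under limma's trended and robust options, where 10.1% of all probe sets had such a p, and ran from 0 to 1 when single arrays were left out (6.11% to 10.5% of all), with Rel at 0.0360 without HDAC9-/- replicate 2. The count of members whose groups did not overlap was 0 with array medians aligned and ran from 2 to 3 when single arrays were left out, settings in which 25.7% to 29.3% of all probe sets did not overlap. The replicate numbers were not taken as a pairing. Deviations from the group means correlated at 0.037, 0.099 and -0.25 for same-numbered samples. For samples of different number they correlated at -0.35 to 0.28. With 3 arrays per group these values cannot settle whether the samples were paired. The block lowered the calls over all probe sets to 0, against 3 without it, which does not settle it either. Calls over all probe sets numbered 15 under the trended and robust options, 6 when arrays were weighted, 1 over the brightest probe set of each gene, and 0 to 6 without single arrays (0 without any 1 of the HDAC9-/- arrays or wild type replicate 1, 1 without wild type replicate 2, 6 without wild type replicate 3). Of the 13 member differences, 8 kept their sign under every alternative that could be run; the exceptions were Nfkbib, Tnfaip3, Bcl3 and Nfkbia probe sets 1449731_s_at and 1420089_at. The signs turned with the loss of 1 array, and for Nfkbib also with aligned medians. The cause was not tested.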
